A study of Rattus with 6 samples.

Results

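The genes described here are 10 rat genes of the NF-kB system, read from the table of counted reads by their symbols: the Rel subunits Nfkb1, Nfkb2, Rela and Relb, the IkB proteins Nfkbia, Nfkbib and Nfkbie, and A20 (Tnfaip3) with its partners Tnip1 and Tnip2. All 10 of the 10 names were among the 20742 genes in the table, and all 10 were among the 12882 genes with enough reads to be tested. They were measured by polyadenylated RNA sequencing in H9C2, a myoblast line from embryonic rat heart. A group of 3 libraries came from cells with the genotype given as control plasmid and a group of 3 from cells with RBM25 overexpression. The labels give no time, dose, vector or selection. RBM25 is a nuclear RNA-binding protein that takes part in splice site choice, and the comparison asks which of these genes had another RNA level when it was overexpressed.

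NF-kB factors are dimers of Rel family proteins that are held in the cytoplasm by IkB proteins. A receptor signal activates the IKK kinases, IkB is phosphorylated and degraded, and the freed dimer enters the nucleus and switches on genes of inflammation and survival. Several of those genes encode brakes on the pathway, among them Nfkbia and Tnfaip3. A20 edits ubiquitin chains in the signalling complexes below the receptors, and the ABIN proteins encoded by Tnip1 and Tnip2 bind both ubiquitin chains and A20. In muscle and heart the pathway is known for its part in inflammation, wasting and the response to injury.

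Libraries held 25543849 to 33130256 counted reads. Rbm25 itself was at 49.2, 44.5 and 45.7 CPM (counts normalized to library size, after scaling between libraries) in control replicates 1, 2 and 3, and at 56.3, 55.9 and 60.1 CPM in RBM25 replicates 1, 2 and 3. Each RBM25 library lay above each control, although the rise was only 23.5% (edgeR log2 fold change 0.30 ± 0.047, SE; adjusted p = 0.0011), and it did not pass without control replicate 2 (0.28, adjusted p = 0.0842). Rbm25l1, an RBM25-like gene on chromosome 10, had 1, 1 and 3 reads in control replicates 1, 2 and 3 and 147, 114 and 105 in RBM25 replicates 1, 2 and 3, the smallest p of all tested genes (5.97 ± 0.33 on the log2 scale, SE; edgeR adjusted p = 7.27e-12). How reads were divided between these similar genes is not stated, so their separate counts are uncertain. The summed level of 10 muscle markers was 531 to 550 CPM in controls and 543 to 599 CPM with RBM25, with Myod1 and Myog, regulators of muscle fate, at means of 60.4 and 21.4 CPM in controls and 61.5 and 18.4 CPM with RBM25. Of these markers, Chrna1 was at 0.282 CPM and untested, and the smallest p of the marker lists belonged to Casq2, a calcium store protein (0.10 ± 0.030, SE; edgeR adjusted p = 0.137). Endothelial markers summed to less than 1 CPM in every library. Leukocyte markers summed to 38.7 to 42.0 CPM in controls and 37.8 to 42.7 CPM with RBM25, nearly all of it Cd14 and Cd3e, while Ptprc, Adgre1 and Itgam had no row in the table.

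Of the 10 genes, Tnip1 fell and the other 9 did not pass the test. Over all tested genes 0.404% were called changed and 0.0466% were called lower, at a Benjamini-Hochberg adjusted p under 0.05. In bulk RNA, fewer cells expressing a gene and less of its RNA per cell cannot be told apart. The fold changes of the 10 genes were small, from -0.24 to 0.083 on the log2 scale, with a median of -0.067 where all tested genes had a median of -0.0021. A total of 8 were negative, against 51.2% of all tested genes. All RBM25 libraries lay below all controls for Tnip1 and Nfkb2 and overlapped the controls for the other 8. Among all tested genes 16.2% had groups without overlap, and for 7.94% the RBM25 libraries were the lower ones.

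**Figure D1:**
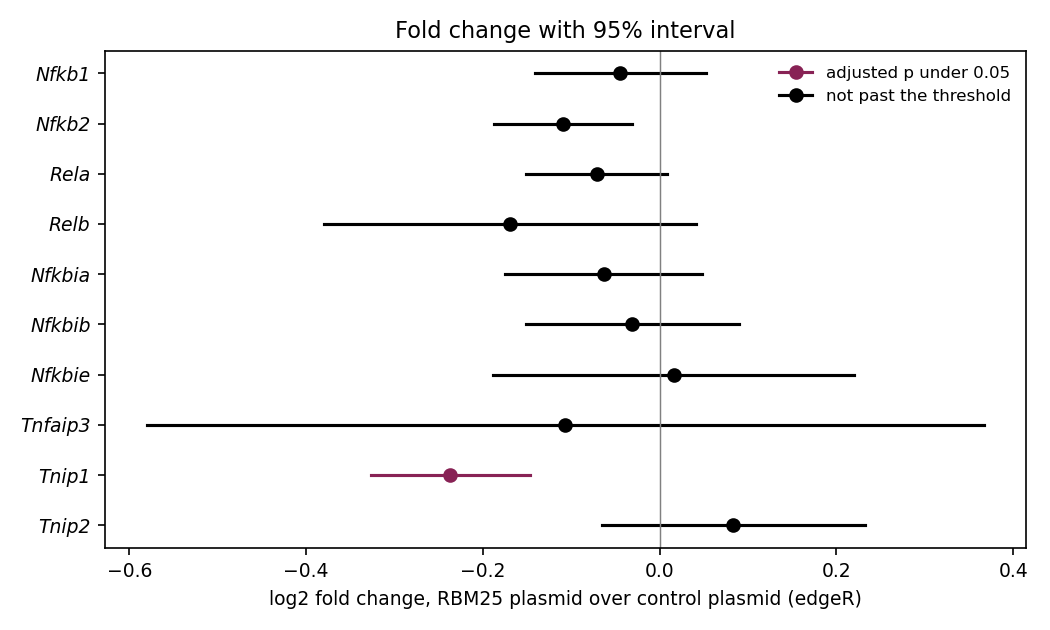
Log2 fold change of each gene, RBM25 overexpression (marked RBM25 plasmid in the figures) over control plasmid, from edgeR on counts with 3 libraries a group. Points are estimates and lines are 95% intervals. The intervals of Tnip1 (-0.33 to -0.15) and Nfkb2 (-0.19 to -0.031) lie below 0, and Tnip1 alone has an adjusted p under 0.05; the interval of Tnfaip3 is the widest, from -0.58 to 0.37.

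The genes spanned a wide range of levels. On the FPKM scale, which divides by gene length and so allows genes to be compared, Rela, the subunit with the main activation domain, was the most abundant at 39.6 ± 2.01 (SD, n = 3) in controls, and more abundant than 85.7% of tested genes. A cluster followed at similar levels: Nfkbia at 19.7 ± 0.917, Tnip1 at 18.3 ± 0.912, Nfkb2 at 17.9 ± 0.739 and Nfkbib at 16.7 ± 0.411 FPKM. Neighbours within that cluster overlapped between their control libraries, so the order from one neighbour to the next is not resolved. Genes further apart did not overlap. Nfkbib reached 17.15 FPKM at most, below all controls of Tnip1 (from 17.75) and Nfkbia (from 18.61). Nfkb2 reached 18.54 FPKM, just below those of Nfkbia. Below them stood Nfkb1 at 10.8 ± 0.294, Nfkbie at 4.91 ± 0.409, Tnip2 at 4.07 ± 0.221 and Relb at 3.68 ± 0.533 FPKM, of which only Tnip2 and Relb overlapped as neighbours. Tnfaip3 was the lowest at 1.06 ± 0.0917 FPKM. On this scale the mRNA of Tnip1 was 17.3 ± 1.08 times (SD, n = 3) as abundant as that of the A20 protein it binds. That ratio rests on gene lengths that are not stated. In CPM, which does not divide by length, the control means were 63.5 for Tnip1 and 7.99 for Tnfaip3. With RBM25 the FPKM ratio was 16.6 ± 4.80 (SD, n = 3).

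With RBM25 the order of levels was the same at the top and bottom, but Tnip1 moved from place 3 to place 5, below Nfkb2 and Nfkbib. It stood at 15.5 ± 0.451 FPKM, against 16.6 ± 0.459 for Nfkb2 and 16.3 ± 0.781 for Nfkbib (SD, n = 3), with the libraries of Nfkbib overlapping those of both other genes. The libraries of Tnip1 and Nfkb2, which overlapped in the controls, no longer did: Tnip1 reached 15.8 FPKM at most and Nfkb2 started at 16.3 FPKM.

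**Figure D2:**
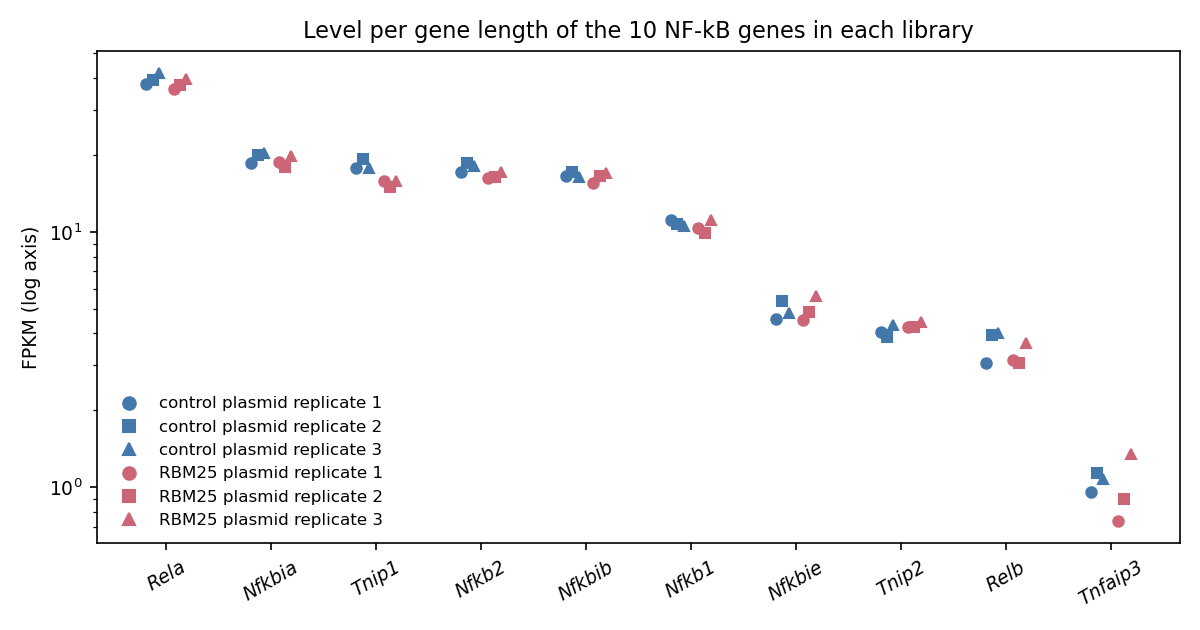
FPKM on a log axis of each gene in each of the 6 libraries, genes ordered by their control mean. Blue is control plasmid, red is RBM25 overexpression (marked RBM25 plasmid), and the symbol gives the replicate. Rela lies highest (39.6 in controls) and Tnfaip3 lowest (1.06), while Nfkbia, Tnip1, Nfkb2 and Nfkbib lie close together.

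Among the Rel subunits none passed the test, while all of the 4 had negative fold changes. Nfkb2 encodes the p100 protein, which is cut to the p52 subunit and acts with RelB in the non-canonical arm of the pathway. Its level was 84.0, 91.2 and 88.8 CPM in control replicates 1, 2 and 3 and 80.4, 81.0 and 83.6 CPM in RBM25 replicates 1, 2 and 3. The highest RBM25 library was just below the lowest control, and edgeR put the log2 fold change at -0.11 ± 0.038 (SE; adjusted p = 0.24). Its 95% interval reaches from a change of -12.2% to one of -2.14%.

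Relb, the partner of p52, was at 8.36, 10.8 and 11.0 CPM in control replicates 1, 2 and 3 and at 8.67, 8.37 and 9.94 CPM in RBM25 replicates 1, 2 and 3. Control replicate 1 was as low as the lower RBM25 libraries, so the groups overlapped. By edgeR its log2 fold change was -0.17 ± 0.10 (SE, adjusted p = 0.568). Leaving out a library moved it both ways. It was -0.28 without control replicate 1 (edgeR adjusted p = 0.282) and -0.099 without control replicate 3 (adjusted p = 0.871). With 213 to 339 reads, Relb varied within groups by 12.5% of its mean, where read counting alone gives 5.96%.

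Rela, which carries the main activating subunit, was at 100, 104 and 111 CPM in control replicates 1, 2 and 3 and at 96.5, 99.9 and 104 CPM in RBM25 replicates 1, 2 and 3. The groups overlapped in their upper and lower libraries (log2 fold change -0.071 ± 0.039, SE; edgeR adjusted p = 0.51). Nfkb1, whose product is the precursor of p50, ranged over 48.7 to 51.4 CPM in controls and 45.9 to 51.3 CPM with RBM25 (-0.044 ± 0.047, SE; adjusted p = 0.779). The intervals of both genes leave room for a change of up to -9.95% for Rela and -9.32% for Nfkb1.

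The share of each subunit in the Rel family overlapped between the groups. Rela gave 55.0 ± 0.978% of the summed FPKM of the 4 subunits in controls and 55.4 ± 0.626% with RBM25 (SD, n = 3). The share of Nfkb2 was 24.9 ± 0.633% and 24.4 ± 0.362%, that of Nfkb1 15.0 ± 0.987% and 15.3 ± 0.505%, and that of Relb 5.10 ± 0.569% and 4.83 ± 0.294% (SD, n = 3).

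None of the 3 IkB genes passed the test. Nfkbia, which encodes the fast-turning inhibitor that NF-kB itself induces, was at 31.6 to 34.4 CPM in controls and 30.6 to 33.3 CPM with RBM25 (log2 fold change -0.064 ± 0.054, SE; edgeR adjusted p = 0.712). Nfkbib, the gene of a more stable inhibitor, was at 24.7 to 26.0 CPM and 23.6 to 25.6 CPM (-0.031 ± 0.059, SE; adjusted p = 0.892). Nfkbie, which encodes the inhibitor IkB epsilon, was at 7.93 to 9.33 CPM and 7.88 to 9.66 CPM (0.016 ± 0.099, SE; adjusted p = 0.973). All of them overlapped between the groups, and their 95% intervals span changes from -11.4% to 3.40%, from -9.97% to 6.39% and from -12.2% to 16.4%.

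Within the IkB genes, Nfkbia gave 47.6 ± 1.14% of the summed FPKM in controls and 46.9 ± 1.40% with RBM25, Nfkbib 40.5 ± 1.13% and 40.7 ± 1.13%, and Nfkbie 11.9 ± 0.609% and 12.4 ± 0.787% (SD, n = 3). The balance of inhibitor to subunit mRNA can be put as the summed FPKM of the IkB genes over that of the Rel genes. It was 0.575, 0.587 and 0.557 in control replicates 1, 2 and 3 and 0.588, 0.587 and 0.593 in RBM25 replicates 1, 2 and 3. Control replicate 2 (0.58723) and RBM25 replicate 2 (0.58744) were almost equal, so the groups only just failed to overlap, with means of 0.573 ± 0.0153 and 0.589 ± 0.00343 (SD, n = 3). The ratio of Nfkbia to Rela alone overlapped, at 0.496 ± 0.0127 and 0.499 ± 0.0202 (SD, n = 3).

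Tnip1 encodes ABIN1, which binds ubiquitin chains and A20 and restrains signals from TNF and Toll-like receptors. It was at 61.7, 67.3 and 61.6 CPM in control replicates 1, 2 and 3 and at 55.0, 52.3 and 54.4 CPM in RBM25 replicates 1, 2 and 3. The groups stood well apart, and control replicate 2 was the highest of all 6. Tnip1 fell by 15.2% (log2 fold change -0.24 ± 0.044, SE; 95% interval -0.33 to -0.15; edgeR adjusted p = 0.00823), and it was number 18 of all tested genes in order of p. The exact permutation test of its log2 CPM gave a two-sided p of 0.1, the smallest that 3 libraries against 3 allow.

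The Tnip1 call was lost without either of 2 libraries and when unit and test were changed together, while its size changed little. Without control replicate 2 the log2 fold change was -0.19 (edgeR adjusted p = 0.181), and without RBM25 replicate 2 it was -0.21 (adjusted p = 0.0943). With limma-trend on FPKM values in place of edgeR on counts it was -0.23 or -0.22 with a pseudocount of 0.1 or 1 (limma-trend adjusted p = 0.282 and 0.295), and over all 13 alternatives it ran from -0.26 to -0.19.

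**Figure D3:**
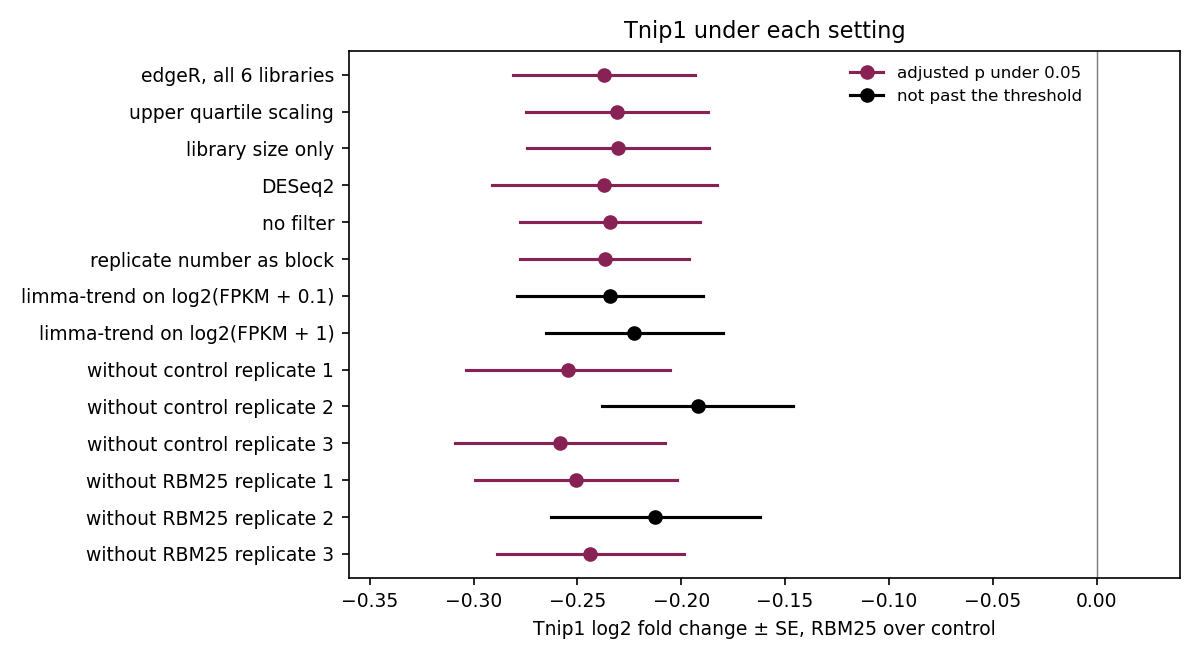
Log2 fold change of Tnip1, RBM25 over control, under the reported fit and 13 alternatives; lines are ± 1 SE. All points lie between -0.26 and -0.19, and the 4 in black (limma-trend on FPKM with either pseudocount, without control replicate 2, without RBM25 replicate 2) have an adjusted p of 0.05 or more.

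Tnip2, which encodes the related protein ABIN2, did not pass the test: 14.1, 13.4 and 14.9 CPM in control replicates 1, 2 and 3 and 14.9, 14.8 and 15.2 CPM in RBM25 replicates 1, 2 and 3. The RBM25 libraries were close together near the upper end of the controls (log2 fold change 0.083 ± 0.072, SE; 95% interval -0.066 to 0.23; edgeR adjusted p = 0.722). The FPKM ratio of Tnip1 to Tnip2 was 4.39, 5.01 and 4.13 in control replicates 1, 2 and 3 and 3.70, 3.52 and 3.57 in RBM25 replicates 1, 2 and 3. These ratios did not overlap between the groups, and since Tnip1 is itself called, they are given as a description with no test. Tnip3, the gene of the remaining ABIN protein, had a single read in control replicate 2 and none in the other libraries.

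Tnfaip3, the gene of A20 itself, was the most variable of the 10. It was at 7.26, 8.60 and 8.12 CPM in control replicates 1, 2 and 3, and at 5.64, 6.79 and 10.1 CPM in RBM25 replicates 1, 2 and 3. RBM25 replicates 1 and 2 were thus the lowest of all 6 libraries, and RBM25 replicate 3 was the highest. By edgeR the difference was -0.11 ± 0.20 on the log2 scale (SE; adjusted p = 0.898), and its 95% interval reaches from -33.1% to 28.9%. Tnfaip3 varied within groups by 22.1% of its mean, against 6.63% from read counting. Without RBM25 replicate 3 it was -0.37 ± 0.12 on that scale (SE; edgeR adjusted p = 0.0663), and without RBM25 replicate 1 it was 0.070, of the opposite sign.

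RBM25 replicate 3 ranked first in its group for most of these genes, by a small margin for some, such as Tnip2 and Nfkbib. It was the highest of the 3 RBM25 libraries for 9 of the 10 genes, the exception being Tnip1, where RBM25 replicate 1 was highest; over all tested genes it was the highest for 36.9%. The median difference of the 10 genes from the control mean was -0.12 in RBM25 replicate 1, -0.12 in RBM25 replicate 2 and 0.0083 in RBM25 replicate 3, on the log2 scale. In the controls it was -0.067, 0.047 and 0.020 for replicates 1, 2 and 3, with replicate 1 the lowest control for 6 of the genes. The median over all tested genes lay between -0.0017 and 0.0022 in every library.

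Without RBM25 replicate 3 a single gene of the 10, Tnip1, was called, and it was lower (-0.24 on the log2 scale, edgeR adjusted p = 3.32e-04). In that comparison 1.19% of tested genes were called lower. Nfkb2 was then at -0.13 (adjusted p = 0.068), Rela at -0.098 (0.171), Relb at -0.24 (0.219), Nfkb1 at -0.086 (0.401) and Nfkbia at -0.093 (0.489). Nfkbib was at -0.054 (0.768) and Nfkbie at -0.065 (0.842), while Tnip2 was positive, at 0.071 (0.756). The counts of RBM25 replicate 3 also differed most from those of its group over all genes, the chi-square statistic divided by its degrees of freedom being 5.88 against replicate 1 and 4.55 against replicate 2, while replicates 1 and 2 themselves gave 3.07. Some muscle markers also differed in RBM25 replicate 3. It was the highest RBM25 library for 6 of the 10 (5 of the 9 tested), against 36.9% of all tested genes. For 2 of the 6 the margin was slight: Casq2 (353, 350 and 355 CPM in RBM25 replicates 1, 2 and 3) and the untested Chrna1 (0.212, 0.158 and 0.215 CPM). Des and Ttn were highest in RBM25 replicate 1. Myog was at 20.3, 21.2 and 22.8 CPM in control replicates 1, 2 and 3 and 14.6, 14.9 and 25.6 CPM in RBM25 replicates 1, 2 and 3. Tnnt2, a troponin, was at 112, 105 and 101 CPM in the same controls and at 94.1, 94.6 and 137 CPM with RBM25. As with Tnfaip3, RBM25 replicates 1 and 2 were the lowest of all 6 libraries for Myog and Tnnt2 and RBM25 replicate 3 was the highest. Myod1 went the other way, at 68.4, 61.6 and 54.6 CPM in RBM25 replicates 1, 2 and 3. Its level in RBM25 replicate 3 was the lowest of all 6 libraries. Myh3, at 2.18 CPM in RBM25 replicate 3, was also lowest there within its group. The part of this muscle marker difference in the results was not tested.

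**Figure D4:**
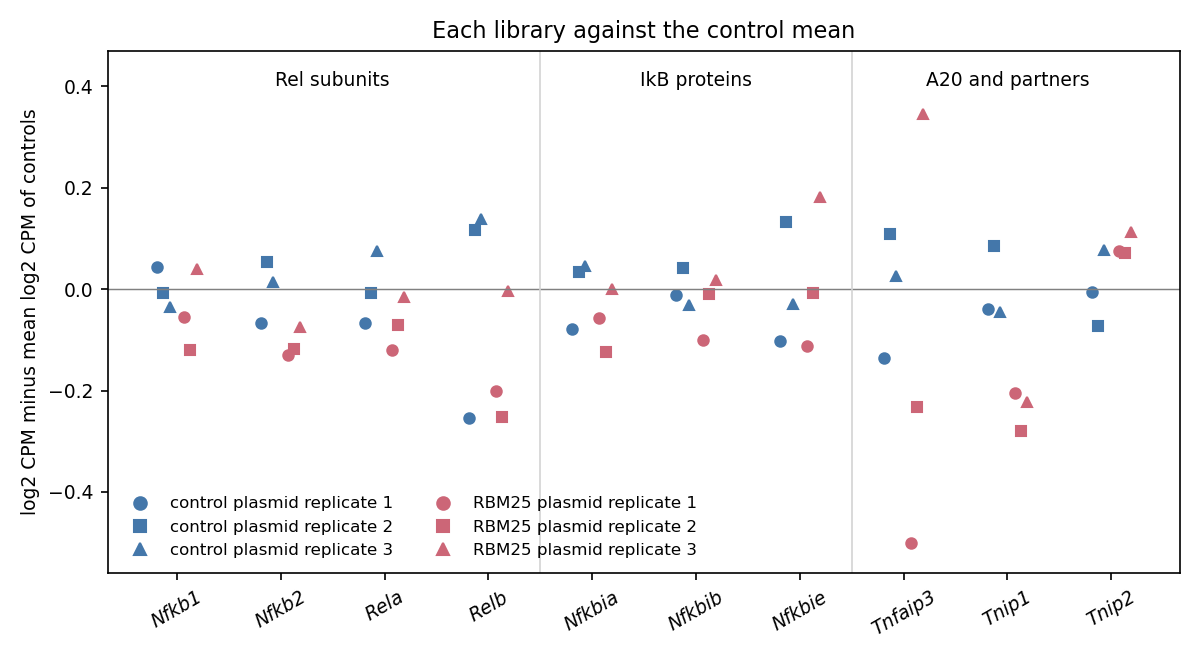
Log2 CPM of each gene in each library minus the mean log2 CPM of the 3 controls. Blue is control plasmid, red is RBM25 overexpression (marked RBM25 plasmid), and the symbol gives the replicate. For 9 of 10 genes the red triangle (RBM25 replicate 3) is the highest red symbol, and for Tnfaip3 it is the highest of all 6 while RBM25 replicates 1 and 2 are the lowest.

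The other genes of the pathway showed no called change. Of 49 genes listed for it, 41 were tested, and edgeR called 0 of them. Over all tested genes edgeR called 0.404%, so the list is too short for 0 calls to stand out. An unadjusted edgeR p under 0.05 was found for 2 of the 41, both higher, against 1441 of all 12882 tested genes. DESeq2 also called 0 of the 41 genes. Their median log2 fold change was 0.0089, with 19 of 41 negative. The smallest p was that of Tax1bp1, an adaptor that brings A20 to its substrates, with 212, 205 and 210 CPM in control replicates 1, 2 and 3 and 215, 222 and 236 CPM in RBM25 replicates 1, 2 and 3. Its groups did not overlap (log2 fold change 0.10 ± 0.035, SE; edgeR adjusted p = 0.226).

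By role, edgeR called 0 of 14 IKK and upstream kinases, 0 of 6 receptors and 0 of 14 adaptors and ubiquitin ligases. It also called 0 of 5 deubiquitinases and other A20-linked genes and 0 of 2 further Rel and IkB genes. Lists this short would seldom hold a call where 0.404% of all tested genes were called. The IKK complex, named here for its role after its values were seen, consists of the kinases encoded by Chuk and Ikbkb and the scaffold NEMO encoded by Ikbkg. Chuk was at 27.7 ± 0.651 and 30.1 ± 1.05 CPM in the control and RBM25 groups, Ikbkb at 32.2 ± 2.28 and 31.9 ± 1.66 CPM, and Ikbkg at 17.3 ± 1.03 and 18.0 ± 0.396 CPM (SD, n = 3). None of these 3 genes passed (edgeR adjusted p = 0.403, 0.977 and 0.795), although the libraries of Chuk did not overlap. Rel, the remaining Rel family gene, also chosen after its values were seen, was at 7.40 ± 0.685 and 8.31 ± 1.02 CPM (SD, n = 3; log2 fold change 0.17, edgeR adjusted p = 0.57).

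**Figure D5:**
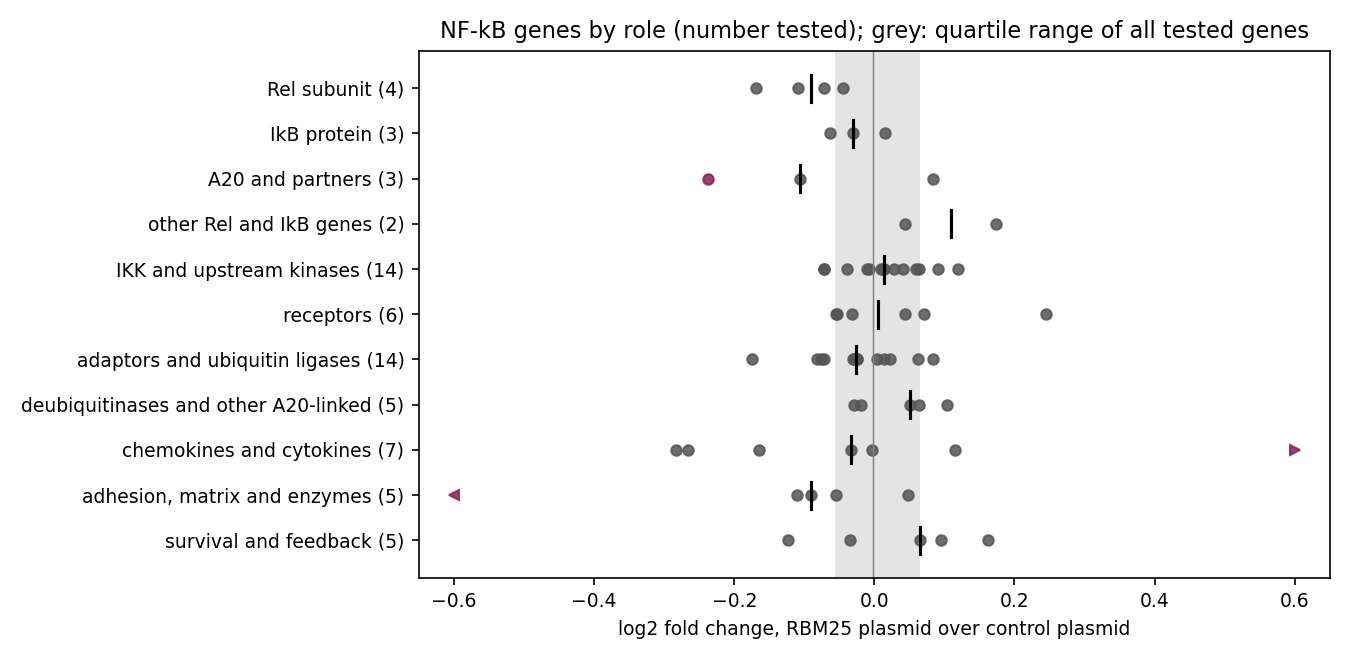
Log2 fold change of each tested gene, grouped by role, with the number tested in parentheses; black bars are medians, the grey band spans the lower to the upper quartile of all tested genes (-0.057 to 0.065), and purple marks an adjusted p under 0.05. The called genes are Tnip1 and, drawn as arrowheads at the plot's edge, Cxcl10 (1.16) and Cfb (-2.98).

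Among genes that NF-kB is known to induce, the called changes went both ways. Of 30 listed targets, 27 were in the table and 17 were tested: 1 rose, 1 fell and 15 did not pass. Over all tested genes 0.404% were called, and this list was chosen with earlier results of these data known. An unadjusted edgeR p under 0.05 was found for 7 of the 17, 4 of them lower, against 1441 of all 12882 tested genes. The groups did not overlap for 4 of the 17, 2 lower and 2 higher (23.5%, against 16.2% of all tested genes). Cxcl10, a chemokine that interferons also induce, was at 1.14, 0.836 and 1.45 CPM in control replicates 1, 2 and 3 and at 3.15, 2.27 and 2.25 CPM in RBM25 replicates 1, 2 and 3 (log2 fold change 1.16 ± 0.22, SE; edgeR adjusted p = 0.00922). Cfb, complement factor B, had 12, 18 and 16 reads in control replicates 1, 2 and 3 and 2, 0 and 4 reads in RBM25 replicates 1, 2 and 3 (-2.98 ± 0.58, SE; adjusted p = 0.0122). Both genes had few reads, and neither was called without control replicate 2; Cfb was also not called without control replicate 3 or RBM25 replicate 2. The median of the 17 was -0.035, with 11 negative. Tnf itself had too few reads to be tested, with a mean of 0 CPM in controls and 0.0307 CPM with RBM25.

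The genes whose pattern over the 6 libraries was most like that of Tnip1 were Eef2k, Pheta1 and Tex101. Likeness was the root mean square difference in log2 CPM, each gene centred on its own mean, among the 9078 other genes whose log2 CPM averaged 3 or more; it was 0.0427, 0.0454 and 0.0463 for these genes. Eef2k, a kinase of translation elongation factor 2, went from 43.5 ± 1.93 to 38.7 ± 0.423 CPM, Pheta1, an endocytic trafficking adaptor, from 11.5 ± 0.295 to 9.90 ± 0.255 CPM, and Tex101 from 19.0 ± 0.719 to 17.0 ± 0.885 CPM (SD, n = 3). None of these 3 genes passed the test (edgeR adjusted p = 0.116, 0.296 and 0.364). Among the other 9 genes the closest to Tnip1 was Nfkb2, at 0.0754 and place 120.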

How the data were processed

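RNA of 6 H9C2 libraries, 3 with a control plasmid and 3 with RBM25 overexpression, was sequenced as stranded poly(A) read pairs, per the labels' protocols. The submitters' processing notes name HISAT2, DESeq2 and the build mRatBN7.2. For versions, counting program, annotation and strand setting, nothing was given in the sources used here. The authors deposited whole read counts per gene, not normalized, and FPKM values rounded to 2 decimals, with the gene length behind them not stated.

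Counts were tested over all genes with edgeR 4.0.16 in R 4.3.3: filterByExpr with a minimum count of 10, TMM scaling (factors 0.996 to 1.01), a robust quasi-likelihood fit on group alone, and Benjamini-Hochberg adjustment over all 12882 tested genes. CPM are relative to the TMM-scaled library size. The SE is the log2 fold change divided by the square root of F, and 95% intervals use the fit's degrees of freedom. Alternatives were DESeq2 1.42.0, limma 3.58.1 on log2 FPKM, other scalings, no filter, a replicate block and leaving out each library. The test was tried on simulated counts.

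The labels name no culture or batch. The p-values therefore reflect only how these libraries vary, and that variation may be technical. No pair of replicates agreed within sampling noise. The members and lists were chosen with earlier results of these data known. Of 113 listed genes, 105 matched by symbol, 1 by a RefSeq synonym (assembly GRCr8) and 7 had no row. Named genes are all 10 members, Rbm25, per list up to 3 called genes with the smallest p (or the 1 with the smallest p), and the 3 genes most like Tnip1. The other genes named, among them Rbm25l1, Tnip3, Tnf, Rel, the IKK genes and the cell type markers apart from Casq2, were chosen after their values were seen. In that assembly only Nfkbib overlaps another gene model (LOC103689966, 34 to 48 reads per library), and 14 transcript models are listed for Tnip1; counts per gene do not tell transcripts apart.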

Additional observations from a re-analysis of the deposited data

How the results depend on the processing

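The 52 genes called over all tested genes became 205 with no filter on low counts, 436 with the replicate block, 2 and 1 with limma-trend on FPKM with a pseudocount of 0.1 and 1, and 5 to 352 when a library was left out (5 when it was control replicate 2, 21 for control replicate 3 and 352 for RBM25 replicate 3). The single call among the 10 genes, Tnip1, became 0 on FPKM with either pseudocount, and leaving out a library gave 0 or 1. Among the other pathway genes 1 (Tax1bp1) was called with the replicate block. The 2 calls among targets became 0 on FPKM with either pseudocount and 0 to 3 without a library, Cxcl1 being the third without RBM25 replicate 3. The log2 fold change of Tnip1 was -0.23 and -0.22 on FPKM and ran from -0.26 to -0.19 without a library. That of Rbm25 was 0.30 and 0.28 on FPKM (limma-trend adjusted p = 0.227 and 0.285) and 0.27 to 0.35 without a library. None of the other 9 genes was called under any of the 13 alternatives (smallest adjusted p 0.0595); Nfkbib, Nfkbie and Tnfaip3 changed sign when some library was left out. Same-numbered libraries had correlations of 0.14, -0.13 and -0.0022 between their deviations from the group means. Differently numbered ones ran from -0.15 to 0.15, the highest being control replicate 3 with RBM25 replicate 2. These correlations show no pairing by number, but with 3 libraries a group they cannot exclude it. Whether the libraries were paired in another way is not known. The causes of these shifts were not tested.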
